A study of Mus musculus with 12 samples.

Results

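Some H3K4me3 intervals of the embryonic mouse forebrain carried a peak in exactly 2 of 4 dissected regions, and these intervals are described here by the 6 possible pairs of regions. The members were chosen by the measured peaks themselves: the peaks of the 4 lists were merged wherever they overlapped or touched, and a union interval was kept if it held peaks of 2 lists and of no other. Of 29785 union intervals, 2278 (7.65%) met this rule. Because the presence, position and width of peaks selected the intervals, their number and their widths are given as a description, with no test. Each region is represented by 1 list, so no value below has a replicate error and no difference between pairs could be set against a spread between replicates.

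The tissue came from wild-type C57BL/6J embryos at E12.5, the age stated in the study, whereas the protocol of the sample labels names E14.5 as well. The 4 groups are the medial, lateral and caudal ganglionic eminences (MGE, LGE and CGE) and the somatosensory cortex (CTX), all untreated, each with 2 biological replicates spread over 12 libraries in total. All groups are bulk dissections of several embryos, in which progenitors, neurons and any non-neural cells are mixed, so fewer marked cells and less mark per cell cannot be told apart. The replicates of a region were merged before peaks were called. One sentence of the protocol says that equal numbers of nuclei of the 4 dissections were pooled, and the labels do not say whether this applied to the libraries used here.

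Trimethylation of lysine 4 on histone H3 is deposited by the SET1 and MLL complexes, is strongest around the transcription start sites (TSSs) of active and poised genes, and favours CpG-rich promoters. Weaker and narrower H3K4me3 can also be found at active enhancers and at alternative promoters inside genes. The MGE and CGE produce most cortical interneurons, the LGE produces striatal projection neurons and olfactory bulb interneurons, and the cortex produces glutamatergic projection neurons.

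One interval of each pair is shown first, with the middle of the bases that peaks of both lists covered (at most 200 bases), as the + strand of GRCm38. These 6 were taken because they lie at genes that define a region or, for MGE+CTX, because the interval ranked highest, and CpG dinucleotides, the sequence feature that goes with promoters carrying this mark, are in capitals. The Nr2f2 window (MGE+CGE) is chr7:70369183-70369382, in a long noncoding gene upstream of Nr2f2. The Gsx1 window (MGE+LGE) is chr5:147186938-147187137 and is intergenic. The other 4 overlap a coding exon of the named gene: Isl1 (LGE+CGE) at chr13:116305132-116305331, Slc17a7 (LGE+CTX) at chr7:45164093-45164279, Otx1 (CGE+CTX) at chr11:21997035-21997234 and Fem1b (MGE+CTX) at chr9:62810966-62811165.
Nr2f2 (MGE+CGE): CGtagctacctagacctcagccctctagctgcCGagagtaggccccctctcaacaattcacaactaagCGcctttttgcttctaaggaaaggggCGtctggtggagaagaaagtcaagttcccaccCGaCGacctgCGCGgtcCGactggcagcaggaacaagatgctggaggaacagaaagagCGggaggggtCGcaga
Isl1 (LGE+CGE): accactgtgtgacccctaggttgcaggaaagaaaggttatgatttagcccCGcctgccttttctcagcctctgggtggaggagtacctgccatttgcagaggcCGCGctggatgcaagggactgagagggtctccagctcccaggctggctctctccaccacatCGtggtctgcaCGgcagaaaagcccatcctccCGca
Gsx1 (MGE+LGE): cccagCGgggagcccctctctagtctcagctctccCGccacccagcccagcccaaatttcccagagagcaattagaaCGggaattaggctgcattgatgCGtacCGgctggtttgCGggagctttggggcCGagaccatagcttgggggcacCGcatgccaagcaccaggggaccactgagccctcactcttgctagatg
Slc17a7 (LGE+CTX): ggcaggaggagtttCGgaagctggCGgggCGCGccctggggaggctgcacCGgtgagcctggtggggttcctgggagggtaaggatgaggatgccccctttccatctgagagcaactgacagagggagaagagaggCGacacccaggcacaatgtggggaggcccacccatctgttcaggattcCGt
Otx1 (CGE+CTX): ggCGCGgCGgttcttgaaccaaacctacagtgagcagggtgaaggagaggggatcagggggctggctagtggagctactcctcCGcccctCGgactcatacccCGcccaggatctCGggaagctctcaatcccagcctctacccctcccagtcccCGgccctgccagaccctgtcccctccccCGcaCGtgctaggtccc
Fem1b (MGE+CTX): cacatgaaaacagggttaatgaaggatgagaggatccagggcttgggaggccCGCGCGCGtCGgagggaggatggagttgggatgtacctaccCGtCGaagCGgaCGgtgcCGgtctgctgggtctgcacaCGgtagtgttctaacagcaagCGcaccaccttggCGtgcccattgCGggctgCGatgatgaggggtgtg
These windows held between 6 CpGs at Isl1 and 15 at Fem1b, and their G+C content ran from 57% at Nr2f2 to 66.5% at Otx1. At the Fem1b interval both the LGE and the CGE list skip a number in the peak numbering described below, so absence there is uncertain. The ratio of observed to expected CpG over the Fem1b interval was 0.697, against a median of 0.278 for MGE+CTX.

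The 4 lists differ in ways that bear on every count. They hold 25339 peaks for MGE, 17284 for LGE, 17752 for CGE and 21442 for CTX, and their median peak width was 563, 1168, 1240 and 701 bp in that order. The authors' −log10 q, which grows with the number of reads, had a median of 5.19 in MGE and 8.57 in CTX, against 40.0 in LGE and 79.3 in CGE. The depth behind each merged list is unknown, and by the study's per-replicate values it was lowest in MGE and highest in CGE. A CTX value is misprinted there, so CTX and LGE cannot be ordered by depth. Coverage within 5 kb of region markers followed the labels only in part. Of 22 marker genes, 19 had most covered bases in CGE, the list with the highest median −log10 q. These included the MGE markers Nkx2-1, Lhx6 and Lhx8. Lhx6 was less covered in MGE (3057 bases) than in LGE (3711), whereas Nkx2-1 and Lhx8 were more covered in MGE than in LGE. All 9 eminence and MGE markers were least covered in CTX. Of 6 cortex markers, 4 (Emx1, Emx2, Tbr1 and Eomes) were least covered in MGE and were more covered in LGE and in CGE than in CTX. Markers of other cell types were marked about equally in the lists, with 4 to 5 of 12 blood and microglia genes and 7 to 9 of 13 vessel and meninges genes near a peak of a given list.

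MGE+CTX was the most frequent pair, with 1061 intervals (3.56% of all union intervals). LGE+CGE followed with 455 (1.53%), MGE+CGE with 329 (1.1%), MGE+LGE with 173 (0.581%), CGE+CTX with 139 (0.467%) and LGE+CTX with 121 (0.406%). MGE+CTX made up 46.6% of the two-list intervals (Wilson 95% interval 44.5 to 48.6%) and LGE+CGE 19.97% (18.4 to 21.7%). The Wilson intervals throughout cover counting error only, and intervals are not replicates of a region.

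Both leading pairs were mutual. Of the two-list intervals that hold an MGE peak, 67.9% had CTX as the partner, and of those with a CTX peak, 80.3% had MGE. Likewise 60.8% of those with an LGE peak had CGE as the partner and 49.3% of those with a CGE peak had LGE. The lists of the MGE and the cortex are the 2 with the lowest −log10 q and the narrowest peaks, and the LGE and CGE lists are the 2 with the highest and the widest. The part of list strength in these pairings was not tested beyond the alternatives that follow.

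The order of the pairs changed with the processing. Of 9 alternatives, MGE+CTX stayed the largest pair in 4 and LGE+CGE became the largest in 5. With every list limited to the length of the shortest (17284 peaks) by −log10 q, LGE+CGE had 1254 intervals and MGE+CTX 364. When a list counted only where it covered at least 50% of the interval, the numbers were 2320 and 789. MGE+CTX stayed first on chromosomes 1 to 19 alone, with peaks under 1 kb apart merged, without intervals that have an absent list's peak within 5 kb, and without the places of skipped peak numbers described below.

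**Figure D1:**
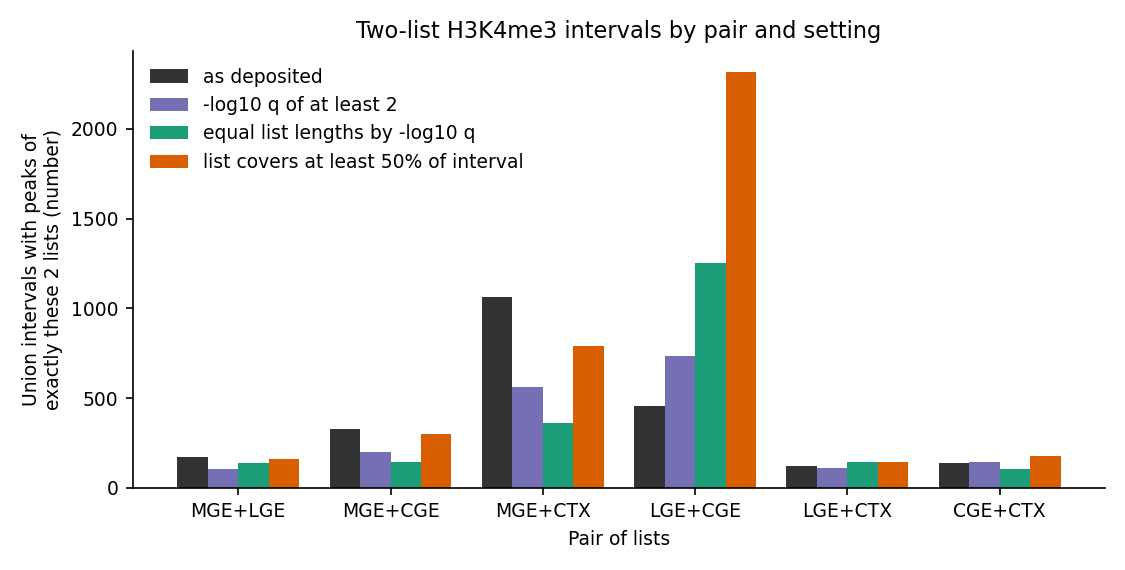
Number of union intervals (y axis) with peaks of exactly the 2 lists named on the x axis, for the lists as deposited and for 3 alternatives. MGE+CTX leads with 1061 intervals as deposited, whereas LGE+CGE leads under the 3 alternatives, with 737, 1254 and 2320.

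LGE+CGE intervals lay at promoters more often than those of any other pair. An annotated TSS was within 2 kb of 60.9% of them (56.3 to 65.3%), against 41.0% for CGE+CTX (33.2 to 49.3%), 40.5% for LGE+CTX (32.2 to 49.4%), 28.9% for MGE+LGE (22.7 to 36.1%), 27.7% for MGE+CGE (23.1 to 32.7%) and 23.8% for MGE+CTX (21.4 to 26.5%). The interval of LGE+CGE does not overlap that of any other pair, whereas CGE+CTX, LGE+CTX and MGE+LGE overlap, as do the 3 pairs that include MGE. Over all two-list intervals the share was 34.1%, between the 19.6% of intervals in 1 list and the 47.3% of those in 3 lists, and far from the 88.5% of those in all 4.

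The median distance to a TSS was 363 bp for LGE+CGE, 3945 bp for CGE+CTX and 4174 bp for LGE+CTX. It was 6349 bp for MGE+CGE, 7160 bp for MGE+CTX and 9331 bp for MGE+LGE. A TSS was covered outright by 42.4% of LGE+CGE intervals but by 7.35% of MGE+CTX intervals. Most MGE+CTX intervals were instead in introns (35.1%) or between genes (35.5%) beyond 2 kb of a TSS, and 9.05% of them lay over 50 kb away, against 2.42% for LGE+CGE.

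**Figure D2:**
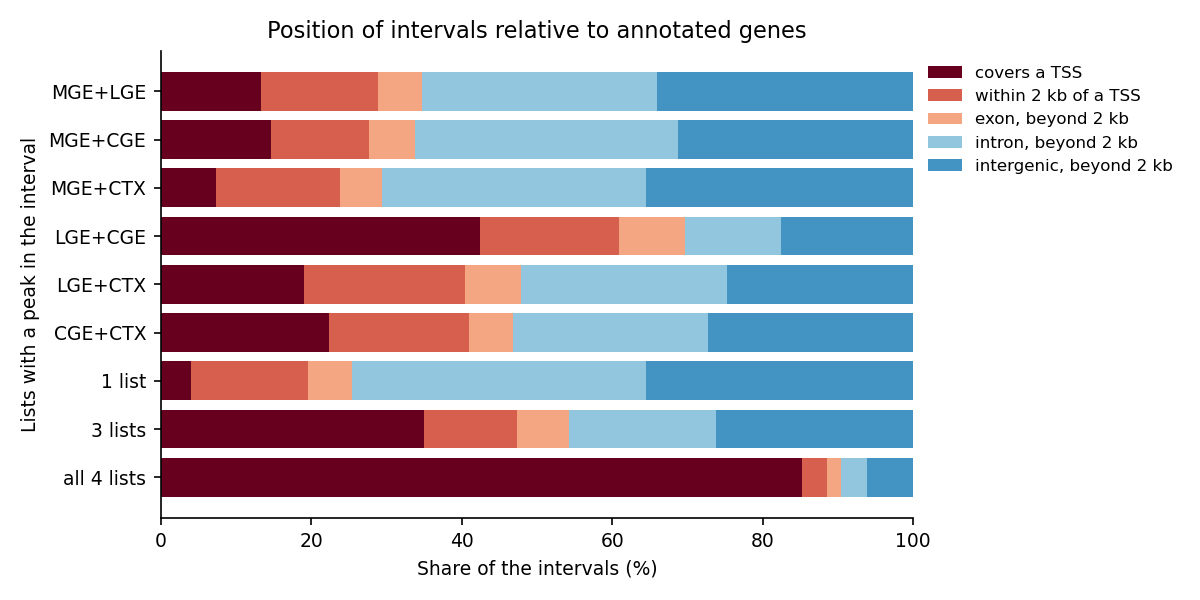
Share of intervals (x axis, in percent) that cover an annotated TSS, lie within 2 kb of one, or lie further away in an exon, an intron or between genes, for the 6 pairs and for intervals of 1, 3 and all 4 lists. The covered-TSS share is 42.4% in LGE+CGE and 7.35% in MGE+CTX, and reaches 85.3% in intervals of all 4 lists.

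Two-list intervals were narrow. Their median width was 458 bp, against 185 bp for intervals of 1 list, 732 bp for 3 lists and 1370 bp for all 4. By pair it ran from 328 bp for MGE+CTX through 477 bp for MGE+LGE, 500 bp for both LGE+CTX and CGE+CTX and 515 bp for MGE+CGE to 761 bp for LGE+CGE. Bases covered by both lists had a median of 163 in MGE+CTX and 448 in LGE+CGE, and at least 50% of the interval was shared in 59.8% and 73.4% of them. In the mixed pairs the LGE or CGE peak was usually the wider: the CGE peak covered more of the interval than the CTX peak in 75.5% of CGE+CTX intervals and more than the MGE peak in 72.6% of MGE+CGE intervals.

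The peaks were also weak within their own lists. In LGE+CGE the median peak stood at percentile 9.24 of −log10 q among LGE peaks and at percentile 13.2 among CGE peaks. In MGE+CTX the medians were percentile 29.7 of MGE and percentile 24.7 of CTX. An LGE or CGE peak paired with MGE or CTX was lower still, at medians between percentile 4.74 (CGE in CGE+CTX) and percentile 6.76 (CGE in MGE+CGE). Percentiles are given in place of most values, because −log10 q and the authors' fold enrichment depend on a list's depth. A percentile ranks a peak within its own list only. Percentiles of 2 lists do not show which peak is stronger, since the lists hold unequal shares of weak peaks. A −log10 q under 2 was found for 53.5% of the MGE peaks in MGE+CGE, against 27.0% of all MGE peaks, and for 13.8% of the CGE peaks in LGE+CGE, against 3.24% of all CGE peaks.

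**Figure D3:**
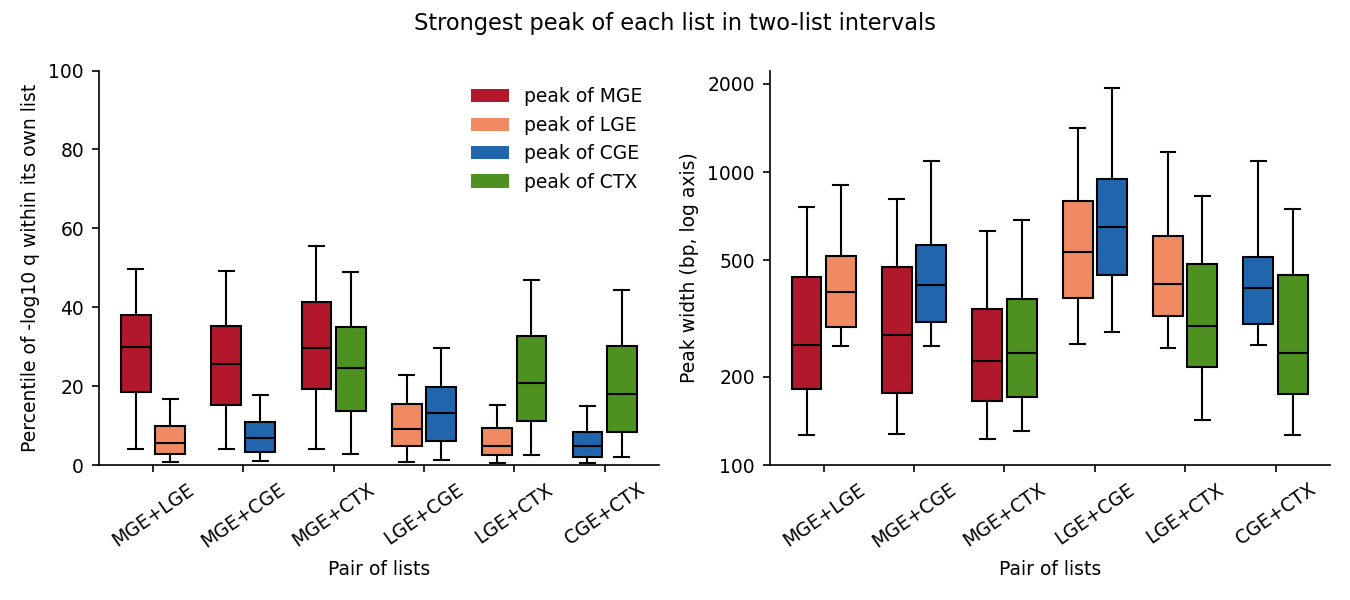
Percentile of −log10 q within the peak's own list (left) and peak width in bp on a log axis (right) for the peak with the highest −log10 q of each list in the intervals of each pair. Boxes span the quartiles with the median as a line and whiskers reach the 5th and 95th percentiles. LGE and CGE boxes sit lowest in percentile, and the widest peaks are those of LGE+CGE.

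Absence of the other lists was seldom a near miss in position. A peak of either absent list lay within 1 kb of 102 two-list intervals (4.48%) and within 5 kb of 552 (24.2%), and the median distance to the nearest such peak was 14617 bp. By pair the share within 5 kb ran from 17.9% for MGE+LGE to 31.7% for CGE+CTX. At the edge of the rule, 74 intervals rested on 50 or fewer shared bases, none on peaks that only touch, and 11 had an absent list's peak within 100 bp. Just outside it, 99 of 11006 intervals of 1 list had a peak of another list within 100 bp, and in 181 of 1675 intervals of 3 lists the least covering list covered under 150 bases.

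Peaks are named by running numbers along the genome, and the lists used here skip 33 (MGE), 59 (LGE), 64 (CGE) and 31 (CTX) numbers. For 22 two-list intervals, an absent list skips a number between the peaks on either side, and 14 of the 22 are MGE+CTX intervals. At such a place a called peak may be missing from the list as analysed here, so lack of the mark cannot be read there. For 12 MGE+CTX intervals both LGE and CGE skip a number, and these include the 4 that ranked highest of their pair. Leaving out all 22 changed the pair counts to 1047 for MGE+CTX and 453 for LGE+CGE.

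CpG content differed among the pairs. The median ratio of observed to expected CpG was 0.506 in LGE+CGE, 0.386 in LGE+CTX, 0.355 in CGE+CTX, 0.343 in MGE+CGE, 0.324 in MGE+LGE and 0.278 in MGE+CTX, against 0.661 in intervals of all 4 lists. Within 2 kb of a TSS it was 0.534 in LGE+CGE and 0.32 in MGE+CTX, and beyond 2 kb 0.463 and 0.264, so the pairs kept this order in both positions. Median G+C content varied less, from 53.0% in MGE+LGE to 55.7% in LGE+CGE. The X chromosome held 40 two-list intervals, 19 of them LGE+CGE (4.18% of that pair, against 2.32% of all union intervals). It held 3.47% of the intervals in all 4 lists and 0.872% of those in 1 list.

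Short motifs were counted on both strands in a 300-base window centred on every interval, as a description of letters and not of bound factors. In intervals narrower than 300 bases the window includes flanking bases outside the interval. The first quartile of width was 142 bp for intervals of 1 list, 241 bp for MGE+CTX and 539.5 bp for LGE+CGE, so the groups hold flanks to unlike degrees. The homeodomain core TAATTA was in 15.7% of LGE+CTX windows (10.3 to 23.2%), 13.8% of MGE+CTX windows (11.8 to 16.0%) and 10.1% of CGE+CTX windows (6.09 to 16.2%). It was in 8.09% in MGE+LGE (4.88 to 13.1%), 6.08% in MGE+CGE (3.97 to 9.20%) and 5.05% in LGE+CGE (3.39 to 7.47%), against 5.55% of all union intervals. Beyond 2 kb of a TSS the shares were 15.3% in MGE+CTX (13.0 to 18.0%), 6.30% in MGE+CGE (3.86 to 10.1%) and 9.54% of all such intervals. The GC box CCGCCC, recognised by Sp factors, was in 30.3% of LGE+CGE windows (26.3 to 34.7%), 19.98% of MGE+CTX windows (17.7 to 22.5%) and 52.6% of intervals in all 4 lists, against 33.7% of all union intervals. Beyond 2 kb of a TSS the GC box was in 25.8% of LGE+CGE windows (19.97 to 32.7%) and 18.3% of MGE+CTX windows (15.8 to 21.1%). It was in 35.1% of such windows in all 4 lists and in 14.6% of all such union intervals. The E-box CAGCTG was in 18.2% of LGE+CGE windows (15.0 to 22.1%) and between 21.5% and 28.3% of the windows of the other pairs, against 20.1% of all union intervals. The E-box CAGATG was in 12.2% to 27.3% of a pair's windows and 16.8% of all union intervals. The same shares were 9.45% to 16.7% and 9.97% for the Sox-type word ACAATG, 6.94% to 14.0% and 10.6% for the CTCF-type word AGGGGGC, and 0.719% to 4.34% and 3.56% for the AP-1 site TGACTCA. Beyond 2 kb of a TSS, CAGCTG was in 19.1% to 30.1% of a pair's windows, against 23.1% of all such union intervals. There the shares were 14.0% to 25.2% and 21.7% for CAGATG, and 9.76% to 19.3% and 14.6% for ACAATG. They were 7.32% to 13.5% and 8.35% for AGGGGGC, and 1.22% to 5.56% and 4.78% for TGACTCA. The words can overlap one another by a few letters, as AGGGGGC and the GC box do.

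Genes near two-list intervals were few. An interval of this kind lay within 5 kb of a TSS of 854 of 21951 protein-coding genes (3.89%). By pair the shares were 1.48% for MGE+CTX, 1.28% for LGE+CGE, 0.51% for MGE+CGE, 0.314% for CGE+CTX, 0.255% for LGE+CTX and 0.223% for MGE+LGE. An interval of all 4 lists was also within 5 kb of 73.2% of the MGE+CTX genes but of 40.4% of the LGE+CGE genes, against 61.2% of all protein-coding genes. Of the 156 genes with a TSS inside an LGE+CGE interval, 104 had no interval of 3 or 4 lists within 5 kb, so the LGE and CGE peaks were the most widely shared H3K4me3 found at them. The same held for 21 of 53 genes with a TSS inside an MGE+CTX interval and for 22 of 36 in MGE+CGE.

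Among LGE+CGE intervals, those with the highest ranks stood at promoters. Mterf1a, which encodes a mitochondrial transcription termination factor, had the highest, with an 868-bp LGE peak (8.71-fold, percentile 35.5 of −log10 q) and a 930-bp CGE peak (9.62-fold, percentile 37.7) over its TSS. The nearest peaks of MGE and CTX were 33846 and 33806 bp away. Tnr, which encodes the extracellular matrix protein tenascin-R, had an 835-bp LGE peak and an 849-bp CGE peak over its TSS, with the nearest MGE peak at 110049 bp and the nearest CTX peak at 69647 bp. Cacna1e, a voltage-gated calcium channel gene, was marked 1640 bp inside the gene and the galanin receptor gene Galr3 812 bp from its TSS. At Cacna1e an MGE peak lay 1477 bp and a CTX peak 1722 bp away. The lincRNA Gm20754 came next, with its TSS covered. The widest interval of the pair, 4563 bp on chr8:109246764-109251326, covered the TSS of the lincRNA D030068K23Rik, with 4237 bp in LGE, 3852 bp in CGE and an MGE peak 361 bp off.

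MGE+CGE intervals with the highest ranks included several near developmental regulators. First and widest was a 3268-bp interval over the lincRNA Gm29683. It had 478 bp in MGE (percentile 41.7, −log10 q 3.49) and 3268 bp in CGE (percentile 27.2, −log10 q 16.4). Close behind was the interval 892 bp upstream of Nr2f2 (COUP-TFII), an orphan nuclear receptor gene expressed in the CGE, on chr7:70367627-70370688. Its 725-bp MGE peak stood at percentile 33.2 (−log10 q 2.49) and its 3062-bp CGE peak at percentile 26.0 (−log10 q 14.8). The nearest LGE and CTX peaks were 5368 and 5388 bp away. Sfrp1, which encodes a secreted Wnt antagonist, had a 628-bp interval 31149 bp upstream. The others were at the TSS of Mum1l1 on the X chromosome and inside Dlx1as, the antisense gene of Dlx1, where the MGE peak was 213 bp and the CGE peak 1153 bp. An interval of all 4 lists also lay within 5 kb of a TSS of Nr2f2, Sfrp1, Mum1l1 and Dlx1as, but not of Gm29683.

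**Figure D4:**
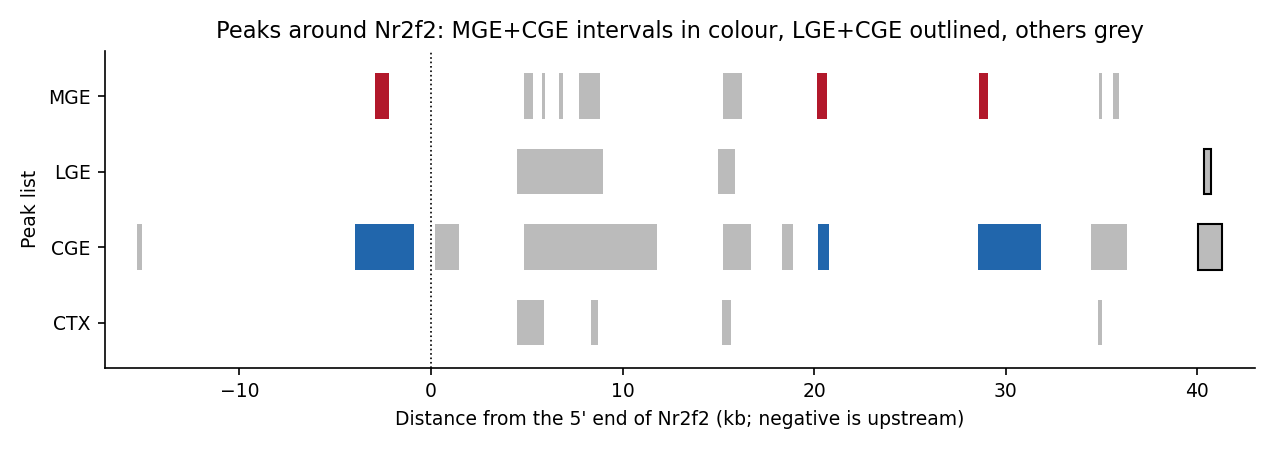
Peaks of the 4 lists around Nr2f2, with distance from its 5′ end in kb on the x axis (negative upstream, positive into and past the gene) and 1 row per list. Peaks of MGE+CGE intervals are in the colour of the list, those of an LGE+CGE interval are outlined, and other peaks are grey. MGE and CGE peaks meet upstream of the gene and at 2 places downstream where LGE and CTX have none.

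The Nr2f2 surroundings held more intervals of 1 pair than any other gene did. As the nearest protein-coding gene, Nr2f2 had 5 MGE+CGE intervals between 892 and 775367 bp away and 3 LGE+CGE intervals between 28564 and 236275 bp away. This count and those that follow were made for every gene, and genes with 3 or more intervals of a pair were picked after their values were seen. There were 20 such cases, of which 16 belonged to MGE+CTX, the largest pair. Nkx2-1, the homeobox gene that specifies the MGE, was nearest to 3 MGE+CGE intervals. The widest of these, 1577 bp on chr12:56527983-56529559 and 5547 bp from the nearest Nkx2-1 TSS, had a 1577-bp MGE peak (2.59-fold, −log10 q 6.54) and a 1302-bp CGE peak (2.10-fold, −log10 q 4.79). The other two were 14881 and 75161 bp away. Uncx, a homeobox gene, was nearest to 3 LGE+CGE intervals, and the 4141-bp one over its TSS had peaks of 3886 bp in LGE and 3961 bp in CGE. In MGE+CTX the corepressor gene Tle3 had 4, and those with 3 each were 2410131K14Rik, Btn2a2, Ddr1, Epha4, G430095P16Rik, Id4, Kif21a, Msi2, Nfic, Nfix, Ptpdc1, Rhbg, Sox9, Tcf7l2 and Ttc7b. They lay at very unequal distances, from 0 to 5202 bp at Nfic and from 201099 to 584158 bp at Sox9.

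The single intervals with the highest percentiles within their own lists were in MGE+CTX, and the top 4 coincided with skipped numbers. Such percentiles do not show that these peaks are stronger than those of pairs made of other lists. For the pair as a whole the median MGE peak stood at percentile 29.7, against 29.8 in MGE+LGE. Fem1b, which encodes a substrate receptor of a CUL2 ubiquitin ligase, had a 959-bp MGE peak (9.33-fold, percentile 94.9) and a 915-bp CTX peak (11.97-fold, percentile 97.5) on chr9:62810536-62811552. Suv39h2, an H3K9 methyltransferase gene, stood at percentile 83.7 in MGE and percentile 87.6 in CTX with its TSS covered. Dcp2, the mRNA decapping enzyme gene, and Kpna1, an importin gene, followed with their TSSs covered. For all 4 of these, and for the widest interval of the pair, 1792 bp over the TSS of the kinase gene Stk11, both the LGE list and the CGE list skip a peak number at the place. Next was Id4, a helix-loop-helix inhibitor gene of neural progenitors, with a 501-bp MGE peak (percentile 66.5) and a 553-bp CTX peak (percentile 68.5) 39 bp from its TSS, while an LGE peak lay 200 bp and a CGE peak 402 bp away. With places of skipped numbers set aside, the next intervals were at Atp5d, Rcor2, Pprc1 and Ptms, each with LGE and CGE peaks between 553 and 1484 bp off.

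Among the LGE+CTX intervals with the highest ranks, the unconventional myosin gene Myo5c had its TSS covered, and the Rab exchange factor gene Dennd4a was marked 6031 bp inside. Next came Emx2, a homeobox gene that patterns the cortex, whose 1416-bp interval on chr19:59469035-59470450 lay 6233 bp past its nearest TSS. Its CTX peak of 1264 bp stood at percentile 48.4 and its LGE peak of 466 bp at percentile 13.3. An interval of all 4 lists also lay within 5 kb of a TSS of Emx2 and of Dennd4a, but not of Myo5c. Pja1 was 84796 bp from another, and the widest interval, 1954 bp, covered the TSS of the antisense gene Gm16876.

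CGE+CTX intervals with the highest ranks all covered a TSS: those of Map7d2, Tmem238, the pseudogene Gm48037, the blood group gene Rhd and the myosin gene Myo10. At Map7d2, a microtubule-associated protein gene, the CGE peak was 632 bp (percentile 25.6) and the CTX peak 328 bp (percentile 23.2). Map7d2, Tmem238 and Myo10 also had an interval of all 4 lists within 5 kb of a TSS, whereas Gm48037 and Rhd had none. The widest interval of the pair, 2019 bp on chr2:105660227-105662245, covered the TSS of Paupar, a noncoding gene next to Pax6, with a 1580-bp CGE peak and a 757-bp CTX peak at percentile 8.76 and percentile 3.07s.

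Of all pairs, MGE+LGE intervals least often had a protein-coding gene as the nearest gene of any kind. Their 5 highest were nearest to the noncoding genes C78197, 2010015M23Rik, Gm48047 and Gm26301 and to Fmo5, a flavin-containing monooxygenase gene whose TSS was covered by a 168-bp MGE peak and a 425-bp LGE peak. Their percentiles were between 18.5 and 38.4 in MGE and between 17.8 and 19.6 in LGE. A protein-coding gene was the nearest of any kind for 46.8% of the pair, against 68.1% of LGE+CGE. This does not measure distance from coding genes. A coding TSS was within 2 kb of 20.2% of MGE+LGE intervals, 20.4% of MGE+CGE and 16.0% of MGE+CTX. In the other pairs it was within 2 kb of 30.6% to 47.7%. The widest interval, 2310 bp, was 13150 bp from the nearest TSS of the lincRNA Gm16086.

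The genes of the fixed region lists were marked in two-list intervals at 1 or more places for 2 of 12 genes shared by the eminences, 3 of 18 MGE genes, 4 of 18 LGE and striatal genes, 7 of 12 CGE genes and 5 of 28 cortex genes. These shares (16.7%, 16.7%, 22.2%, 58.3% and 17.9%) stand beside 3.89% of all protein-coding genes, but the lists were chosen with earlier results known and hold genes of wide H3K4me3 domains, and a gene with more peaks has more chances of an interval. Genes in a pair with the region of their own list were 2 of 3 for MGE, 4 of 4 for LGE, 4 of 7 for CGE and 4 of 5 for cortex. Over the 854 protein-coding genes with a two-list interval within 5 kb, 56.1% were in a pair with MGE, 44.5% with LGE, 53.0% with CGE and 52.2% with CTX, and with so few genes per list these counts are a description only. The 3 CGE genes in pairs without CGE were Prox1, Htr3a and Id2.

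CGE list genes with a TSS in or next to an LGE+CGE interval were Cck, Calb2 and Npas1. Cck, a neuropeptide gene of CGE-derived interneurons, was covered by an 1819-bp LGE peak (3.72-fold, percentile 11.8) and a 2217-bp CGE peak (4.91-fold, percentile 35.6), with the nearest MGE peak at 29255 bp and CTX peak at 59678 bp. Npas1, a transcription factor gene, had a 494-bp LGE peak at percentile 3.801 and a 940-bp CGE peak at percentile 36.0 over its TSS, and Calb2, the calretinin gene, a 518-bp LGE and a 346-bp CGE peak 14 bp from its own. None of these 3 genes had an interval of 3 or 4 lists within 5 kb. Htr3a, the serotonin receptor gene of CGE interneurons, was instead marked in MGE (213 bp, percentile 8.21) and CTX (396 bp, percentile 36.5), 73439 bp from the nearest LGE peak and 73414 bp from the nearest CGE peak. Prox1 had a 286-bp LGE+CTX interval 4467 bp upstream, and Id2 a 127-bp MGE+CTX interval 1719 bp upstream. Prox1 and Id2 also had an interval of all 4 lists within 5 kb of a TSS, and Htr3a had none.

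LGE list genes were marked in LGE+CGE in 3 of 4 cases, against 32.8% of the 854 genes. Isl1, a LIM homeobox gene of striatal neurons, had a 434-bp LGE peak (percentile 2.69) inside an 1822-bp CGE peak (percentile 17.7) on chr13:116304931-116306752, the interval whose sequence is shown above, and MGE and CTX peaks lay 2515 and 2346 bp off. Meis2 had 2 intervals, of 613 and 628 bp, 932 and 3432 bp upstream of its TSSs, with MGE peaks 259 and 1266 bp away. Zfp503 (Nolz1) had a 427-bp LGE peak and a 1631-bp CGE peak over a TSS. Isl1, Meis2 and Zfp503 each also had an interval of all 4 lists within 5 kb of a TSS. Gsx1, an LGE and MGE progenitor homeobox gene, had the only MGE+LGE interval of the region lists, 510 bp on chr5:147186888-147187397 and 1299 bp upstream, with a 283-bp MGE peak (percentile 37.9), a 492-bp LGE peak (percentile 15.4) and a CGE peak 1137 bp off.

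MGE and shared eminence genes followed no single pair. Zeb2, which directs interneurons to the cortex, had a 1029-bp MGE+CGE interval 289 bp from a TSS, with the nearest LGE and CTX peaks 83497 and 83521 bp away. An interval of all 4 lists lay within 5 kb of another Zeb2 TSS, so LGE and CTX did hold peaks near this gene. Shh, the ventral morphogen gene, had a 413-bp MGE+CGE interval with a 130-bp MGE peak. Pvalb, a marker of mature MGE interneurons, had 307 bp of LGE+CGE peaks over a TSS at percentile 4.84 and percentile 6.35. Dlx1 held the MGE+CGE interval described for Dlx1as, 3437 bp from its own TSS, and Slc32a1, the vesicular GABA transporter gene, an LGE+CGE interval 2774 bp upstream.

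Of the 5 cortex list genes, 4 were in a pair with CTX, as were 52.2% of the 854 genes. Dmrt3, a gene of the dorsal telencephalon, had a 452-bp CGE+CTX interval with its CTX peak at percentile 57.8 and its CGE peak at percentile 5.86. Otx1, a homeobox gene of cortical progenitors, had an 881-bp CTX peak (percentile 64.9) and a 243-bp CGE peak (percentile 9.68) in an interval on chr11:21996503-21997383, with an LGE peak 921 bp off. Slc17a7, the vesicular glutamate transporter gene VGLUT1, had a 1039-bp LGE peak (percentile 19.8) and a 192-bp CTX peak (percentile 5.57) 64 bp from its TSS. Wnt8b, a signal of the cortical hem, had a 688-bp MGE and an 829-bp CTX peak 4230 bp past its TSS. Slc17a6, the VGLUT2 gene, was marked in MGE+CGE and, at another place, in LGE+CGE, both with CGE and neither with CTX. Otx1, Slc17a7 and Slc17a6 also had an interval of all 4 lists within 5 kb of a TSS. Dmrt3 and Wnt8b had none of all 4 lists but had one of 3 lists.

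**Figure D5:**
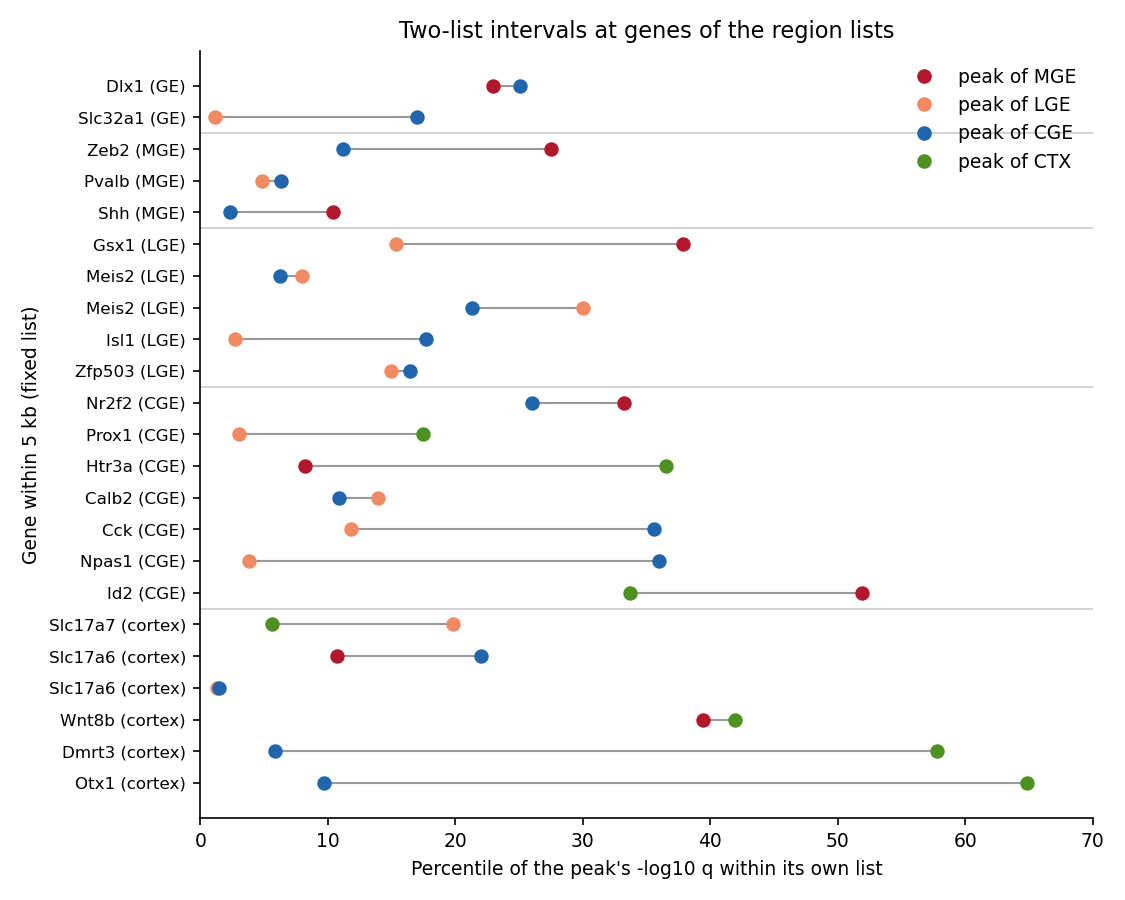
Percentile of −log10 q within its own list (x axis) of the 2 peaks in each two-list interval within 5 kb of a gene of the region lists (y axis, the list in brackets), coloured by list and joined by a line. Otx1 and Dmrt3 have a CTX peak at percentiles 64.9 and 57.8 of CTX and a CGE peak at 9.68 and 5.86 of CGE, whereas at Slc17a7 the LGE peak has the higher percentile of the 2. Percentiles rank peaks within a list only.

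Genes of other kinds were also marked in these intervals. Of the progenitor and neuron list, 4 of 14 genes were marked (28.6%): Sox2 and Hes5 in MGE+CTX, Map2 and Elavl3 in MGE+CGE. In the list of other territories of the embryo it was 7 of 29 (24.1%), with TSSs of the cardiac genes Gata4 and Tbx5 covered in LGE+CGE, those of Pax3 and Pax9 covered in MGE+CGE, Nkx2-5 in LGE+CGE and LGE+CTX, Cdx2 in LGE+CTX and En2 in LGE+CGE. The Gata4 interval was 1478 bp wide, with both peaks at or below percentile 3.48 of their lists. Only some of the cells that could contaminate a dissection were looked at. None of 12 blood and microglia genes and none of 8 choroid plexus and hem genes had a two-list interval within 5 kb. The share of all protein-coding genes was 3.89%, at which lists of this size would hold few or none. At any distance Ptprc was the nearest coding gene of an MGE+CTX and an LGE+CTX interval, and Foxj1 of an MGE+CTX interval. Of 13 vessel and meninges genes only Col1a1 had one (MGE+CTX, with a CGE peak 142 bp away), and of 7 oligodendrocyte genes only Cspg4, at 2 places in MGE+CTX. The part of these cells in the pair counts was not tested. In its single-nucleus data the paper describes LGE and CGE nuclei with glutamatergic features, likely contamination from the pallial-subpallial boundary and not detected in MGE. No gene list for that boundary was used here. Its part in the LGE+CTX and CGE+CTX intervals, and in the coverage of cortex markers in LGE and CGE, was not tested.

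All two-list intervals were also compared with the 135 presumptive enhancers whose positions the study lists as overlapping tested enhancers. A two-list interval overlapped 29 of the 135, against 50 for intervals of all 4 lists, 11 for 3 lists and 35 for 1 list. As a share of intervals, 1.27% of two-list intervals overlapped one, against 0.344% in all 4 lists, 0.657% in 3 lists, 0.363% in 1 list and 0.440% of all union intervals. The paper built its presumptive enhancers from peaks outside gene TSSs, so intervals that cover a TSS had less chance of an overlap. Such intervals were 85.3% of those in all 4 lists, 42.4% of LGE+CGE, 7.35% of MGE+CTX and 3.99% of those in 1 list. Overlap shares were not computed for intervals away from TSSs. The part of this exclusion in the shares given here, by number of lists or by pair, was not tested. By pair, the overlaps were 3 of 121 LGE+CTX intervals (2.48%), 18 of 1061 MGE+CTX (1.70%), 2 of 139 CGE+CTX (1.44%), 4 of 329 MGE+CGE (1.22%), 1 of 173 MGE+LGE (0.578%) and 1 of 455 LGE+CGE (0.220%). Of these 29 intervals, 3 lay within 2 kb of a coding TSS. Among the MGE+CTX intervals, 2 lay 170036 and 63203 bp from Hes1, the Notch effector gene, and 1 is the Wnt8b interval described above. The MGE+CGE overlaps included the interval 75161 bp from Nkx2-1, and the LGE+CGE overlap lay 236275 bp from Nr2f2.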

How the data were processed

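H3K4me3 was profiled by CUT&Tag in MGE, LGE, CGE and cortex. The authors aligned reads to GRCm38/mm10 with Bowtie2, removed blacklisted reads and Picard duplicates, merged the replicates with SAMtools and called broad peaks with MACS, and deepTools is named for quality control. Versions, the MACS threshold and any control are not given in the sources used here. The authors' fold enrichment is a ratio of reads to the caller's background, and the deposited −log10 q values come from the same caller. Peaks past a chromosome end numbered 0, and 66 of 66 RefSeq promoter sequences matched the genome used (GRCm38.p6).

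Merging, distances and overlaps used pandas 2.3.3, numpy 2.4.6, scipy 1.17.1 and pysam 0.24.0 under Python 3.11.15 on GENCODE M21 TSSs of all transcripts, and figures were drawn with matplotlib 3.10.9. The interval steps were tested on simulated data. No significance test was run, since 1 pooled list per region leaves no replicates. Shares carry Wilson 95% intervals. Motifs were searched in 300-base windows centred on the intervals, whatever their width.

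Intervals named are, per pair, the 5 with the highest lower percentile of −log10 q over both lists, named by the gene of the nearest TSS, the widest, and all within 5 kb of a TSS of a listed gene. One of these intervals is not reported here. Recurrent genes, the intervals without skipped numbers, and the enhancer overlaps were chosen after values were seen. The members and gene lists were chosen with earlier results of these data known. One listed gene symbol had no annotation. Alternatives are given in the closing section.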

Additional observations from a re-analysis of the deposited data

How the results depend on the processing

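Each list holds the merged replicates of 1 region, so leaving out a replicate was not possible. No paired analysis was possible because no test was run and the lists carry no replicate. Counts that stayed within 1.5 times their value as reported, and shares within 2 kb of a TSS that stayed inside their Wilson interval, are not repeated: this held for 45 of 63 alternative counts and 43 of 72 alternative shares. LGE+CGE had the highest share near a TSS in 12 of 12 alternatives. With a −log10 q of at least 2, the counts were 104 for MGE+LGE, 197 for MGE+CGE, 564 for MGE+CTX and 737 for LGE+CGE, and the TSS shares 20.2% for MGE+LGE and 27.0% for MGE+CTX. Equal list lengths by −log10 q gave counts of 143 for MGE+CGE, 364 for MGE+CTX and 1254 for LGE+CGE, and TSS shares of 21.3% for MGE+LGE and 31.0% for MGE+CTX. Equal lengths by fold gave 181, 406 and 1214 for those pairs, and TSS shares of 20.99% for MGE+CGE, 65.9% for LGE+CGE and 29.5% for CGE+CTX. With at least 50% of the interval covered by a list, the total rose to 3895 and LGE+CGE to 2320, with 71.9% of LGE+CGE near a TSS. Peaks of at least 500 bp left 64 MGE+LGE, 115 MGE+CGE, 77 MGE+CTX, 63 LGE+CTX and 79 CGE+CTX intervals but 1536 for LGE+CGE, and TSS shares of 18.8% for MGE+LGE, 33.9% for MGE+CGE, 27.3% for MGE+CTX and 66.9% for LGE+CGE. Without intervals that have an absent list's peak within 5 kb, 19.1% of MGE+CTX were near a TSS. With a 1 kb limit the TSS share was 21.9% for MGE+CGE, 15.8% for MGE+CTX, 55.2% for LGE+CGE and 33.1% for CGE+CTX. With 5 kb it was 39.3% for MGE+LGE, 42.9% for MGE+CGE, 39.9% for MGE+CTX, 72.1% for LGE+CGE, 56.2% for LGE+CTX and 58.3% for CGE+CTX. With protein-coding TSSs alone it was 20.2% for MGE+LGE, 20.4% for MGE+CGE, 16.0% for MGE+CTX, 47.7% for LGE+CGE, 30.6% for LGE+CTX and 30.9% for CGE+CTX. The alternative without places of skipped peak numbers was chosen after seeing the data. Beyond these settings the cause was not tested. Unknown depth limits every count, since a weaker list can miss a peak that a stronger one holds. The 2 lists of lowest median −log10 q held the most intervals found in no other list. These numbered 6562 for MGE and 3571 for CTX, against 547 for CGE and 326 for LGE. A −log10 q under 2 was found for 27.0% of MGE and 11.8% of CTX peaks, against 3.24% of CGE and 3.84% of LGE peaks. The part of depth in these numbers was not tested.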
